A study of Mus musculus with 2 samples.

Results

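F-box proteins are the substrate-choosing subunits of the SCF ubiquitin ligases, and 76 genes of this family were described here in the gastrocnemius, the large calf muscle, of young mice. Members were chosen by symbol: Fbxl, Fbxo or Fbxw followed by a digit, with at least 1 protein-coding transcript in the annotation, except for 1 gene that the rule leaves out. They are 76 of 55536 annotated genes and of 21901 genes with a protein-coding transcript. Another 2 genes with such symbols, Fbxw23 and Fbxl12os, had no protein-coding transcript and are not members. Total RNA was sequenced in 1 group of 2 replicate libraries from male B6CASTF1/J mice, the hybrid offspring of C57BL/6J and CAST/EiJ, at an age of 14 days, and the labels name no treatment. The input was 300 ng of RNA per library, to which ERCC control RNAs were added. The labels speak of 3 males and give both libraries the same donor, so neither pooling nor the separateness of the animals is settled, and differences between the libraries may be technical. Replicate 1 had 40825601 expected counts and replicate 2 had 37329025, and a floor of 3 counts equalled 0.0735 and 0.0804 CPM.

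In an SCF ligase the cullin CUL1 carries a RING protein, RBX1, at one end, which recruits a ubiquitin-conjugating enzyme, and the adaptor SKP1 at the other, which holds the F-box of an exchangeable F-box protein. The F-box protein binds the target, often through leucine-rich repeats (the Fbxl class) or WD40 repeats (the Fbxw class), while the Fbxo class carries other domains. In skeletal muscle, members of the family are known for the turnover of insulin signalling and sarcomere proteins and for the loss of muscle mass after denervation or fasting.

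The labelled tissue was checked by its markers. The 5 skeletal muscle markers (Acta1, Ckm, Myh4, Mylpf and Ttn) summed to 82427 TPM (a level scaled by transcript length and by the library's sum) in replicate 1 and 88398 TPM in replicate 2, and all 5 neuronal markers were under 1 TPM. Fibroblast markers summed to 2547 and 2060 TPM, endothelial markers to 142 and 124 TPM, Schwann cell markers to 82.6 and 120 TPM and macrophage markers to 30.0 and 28.3 TPM in replicate 1 and replicate 2. In bulk RNA, fewer cells of a type and less RNA per cell cannot be told apart. The libraries differed in other lists. All 5 adipocyte markers were higher in replicate 2, with sums of 2.56 TPM in replicate 1 and 17.8 in replicate 2, as were all 5 immediate early and stress genes, with 11.2 and 42.0 TPM. All 5 glucocorticoid-induced genes were higher in replicate 1, with 343 TPM against 154 TPM in replicate 2. The part of these lists in the differences between the libraries given below was not tested.

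Of the 76 members, 44 (57.9%) reached 1 TPM in both libraries, which is called detected here, against 10836 of 21901 genes with a protein-coding transcript (49.5%). The family summed to 467 TPM in replicate 1 and 456 in replicate 2, or 462 ± 7.75 TPM (SD, n = 2). The median member had 1.56 and 1.54 TPM, against 1.11 and 1.02 TPM for all genes with a protein-coding transcript. Detected members had medians of 5.88 and 5.14 TPM, against 8.01 and 7.68 TPM for all such detected genes. The family's level was concentrated: the 5 highest members held 42.6% of its TPM in replicate 1 and 43.4% in replicate 2, and the 10 highest 61.7% and 61.8%. At least 10 TPM in both libraries was reached by 12 members, and 32 lay between that and the 1 TPM threshold. Just inside the threshold were Fbxl19, with 1.10 and 1.03 TPM, and Fbxl7, with 1.11 and 1.29 TPM. Just outside was Fbxo5, with 1.22 TPM in replicate 1 and 0.60 in replicate 2, followed by Fbxo36, with 0.66 and 0.67 TPM. No counts at all were listed for 16 members, and the other 16 that were not detected had means of at most 0.91 TPM. Of those 16, 10 had at least 10 counts over both libraries (Fbxo5, Fbxo36, Fbxl8, Fbxl16, Fbxl2, Fbxo27, Fbxo48, Fbxo24, Fbxl13 and Fbxw10) and 6 had fewer (Fbxo2, Fbxl21, Fbxo47, Fbxo16, Fbxo41 and Fbxo39).

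By class, 23 of 35 Fbxo members were detected and held 59.0% of the family's TPM in replicate 1 and 59.1% in replicate 2. Of the Fbxw members 8 of 23 were detected, with 24.0% and 23.7% of the TPM, and of the Fbxl members 13 of 18, with 17.0% and 17.1%. The 8 detected Fbxw members had a median of 10.67 TPM in replicate 1 and 11.39 in replicate 2. They ranged from Fbxw5, with 31.80 and 31.14 TPM, down to Fbxw9, with 1.62 and 1.56 TPM. The medians were 5.74 and 5.14 TPM for detected Fbxo members and 4.16 and 4.08 TPM for detected Fbxl members.

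**Figure D1:**
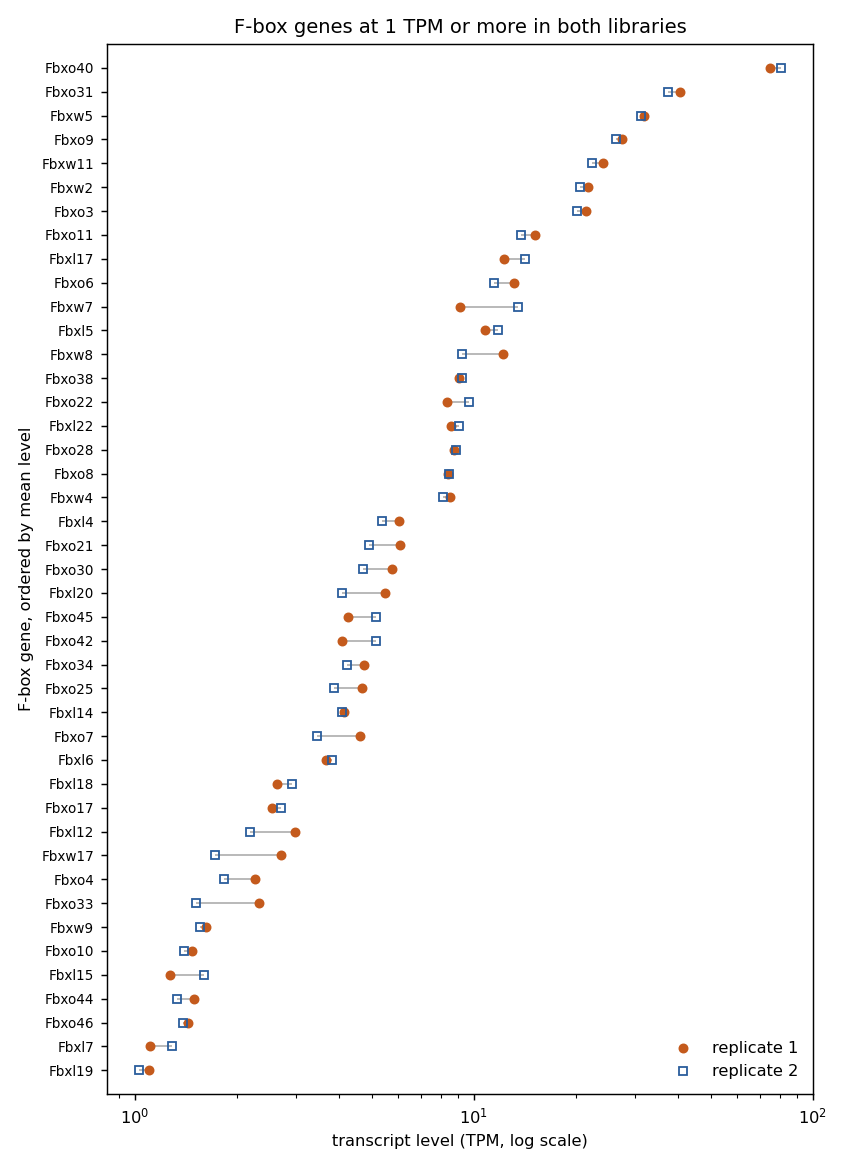
Transcript level (x axis, TPM, log scale) of 43 of the 44 F-box genes at 1 TPM or more in both libraries, ordered by mean level from top to bottom; filled circles are replicate 1, open squares replicate 2, and the line joins them. Fbxo40 stands apart at 75.1 and 80.8 TPM, and on this scale Fbxw17 and Fbxo33 show the widest gaps between the libraries.

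The muscle-linked ligases were all detected, 5 of 5, and summed to 136.0 TPM in replicate 1 and 136.9 in replicate 2. Fbxo40 (ENSMUSG00000047746.14, chr16:36963460-36990467, minus strand), a striated-muscle F-box protein known for the degradation of the insulin receptor substrate IRS1, was the leading member, with 75.08 TPM from 9553 counts in replicate 1 and 80.76 TPM from 10012 counts in replicate 2. It alone held 16.1% and 17.7% of the family's TPM. Its range did not meet that of the next gene. Fbxo31, known for the degradation of cyclin D1 after DNA damage and listed among genes induced in muscle wasting, was the runner-up with 40.52 TPM in replicate 1 and 37.41 in replicate 2. Fbxl22, which in heart muscle acts on proteins of the sarcomere such as alpha-actinin and filamin C, had 8.59 and 9.05 TPM. Fbxo21, an F-box gene induced in denervated muscle, had 6.05 TPM in replicate 1 and 4.92 in replicate 2. Fbxo30, which is needed for muscle loss when BMP signalling is blocked, had 5.74 and 4.73 TPM. Fbxo30 is also a relative of Fbxo40, with 60.3% identical bases over the aligned coding sequence, and Fbxo40 exceeded it 15.1 ± 2.82-fold in TPM (SD, n = 2). In the second quantification the mean ratio of Fbxo40 over Fbxo30 was 12.1.

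The promoters of these muscle genes differed in base composition, and the 3 that follow are shown because they set the leading muscle gene and the sarcomeric Fbxl22 beside Fbxo31. Each runs 5′ to 3′ from 250 bases before to 50 bases after the RefSeq start on GRCm38.p6, all on the minus strand, and capitals mark CG dinucleotides. Fbxo40 lies at chr16:36990418-36990717, Fbxl22 at chr9:66514544-66514843 and Fbxo31 at chr8:121578757-121579056.
Fbxo40: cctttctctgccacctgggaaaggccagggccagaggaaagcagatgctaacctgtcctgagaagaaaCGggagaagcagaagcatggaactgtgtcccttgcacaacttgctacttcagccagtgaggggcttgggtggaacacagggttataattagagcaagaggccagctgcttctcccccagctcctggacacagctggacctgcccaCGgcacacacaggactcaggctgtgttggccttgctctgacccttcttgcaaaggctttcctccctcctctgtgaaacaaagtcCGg
Fbxl22: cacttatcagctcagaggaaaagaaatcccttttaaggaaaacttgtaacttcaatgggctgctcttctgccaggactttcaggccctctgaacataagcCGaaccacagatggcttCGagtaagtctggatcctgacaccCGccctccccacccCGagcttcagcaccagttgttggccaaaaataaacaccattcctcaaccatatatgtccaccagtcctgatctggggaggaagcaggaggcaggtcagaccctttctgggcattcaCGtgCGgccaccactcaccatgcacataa
Fbxo31: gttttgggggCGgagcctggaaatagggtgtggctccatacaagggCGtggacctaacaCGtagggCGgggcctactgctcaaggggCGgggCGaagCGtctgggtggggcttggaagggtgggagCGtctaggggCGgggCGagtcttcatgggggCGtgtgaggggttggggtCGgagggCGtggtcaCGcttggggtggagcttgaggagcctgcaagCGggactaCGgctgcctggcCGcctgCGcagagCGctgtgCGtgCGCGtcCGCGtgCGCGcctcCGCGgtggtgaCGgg
The Fbxo40 window held 3 CG dinucleotides, which is 0.128 of the number its base composition would give. The Fbxl22 window held 6, or 0.316, and the Fbxo31 window 29, or 0.914. The letters CAGCTG, an E-box core that reads the same on both strands, were found in the Fbxo40 window and not in the other two. They occurred in 15.0% of 13383 promoters of the same length. The window of the muscle-linked Fbxo21, not shown, held 27 CG dinucleotides, or 0.890, and no CAGCTG. That of Fbxo6, outside the muscle list, held 5, or 0.240.

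Several of the highest members are known for roles outside muscle. Fbxw5, which limits centriole duplication through SAS-6, had 31.80 TPM in replicate 1 and 31.14 in replicate 2. Fbxo9, known for the turnover of the mTOR partners TEL2 and TTI1, had 27.44 and 26.31 TPM. Fbxw11, the beta-TrCP2 protein that recognises phosphorylated beta-catenin and I-kappa-B, had 24.06 and 22.40 TPM. In the first quantification these 3 followed Fbxo31 in the same order in both libraries, and none of their ranges overlapped. The second quantification kept Fbxw5 above the others but gave Fbxw11 a mean of 33.6 TPM and Fbxo9 a mean of 31.5 TPM. There Fbxw11 was higher in replicate 1 and Fbxo9 in replicate 2, and their ranges overlapped. The order of Fbxo9 and Fbxw11 thus depended on the quantification.

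Fbxw2, known for the turnover of the placental transcription factor GCM1, had 21.78 TPM in replicate 1 and 20.63 in replicate 2, and Fbxo3, which acts on Fbxl2, had 21.45 and 20.12 TPM. Their ranges overlapped, so their order is not resolved in the first quantification. In the second, Fbxw2 was higher in both libraries and the ranges did not overlap. Fbxo11, whose human protein acts on BCL6, had 15.21 and 13.84 TPM, and Fbxl17, which dismantles wrongly paired BTB domain dimers, had 12.25 and 14.13 TPM. These also overlapped. Among the 25 highest members, 17 had a range that overlapped that of the next lower gene, and no rank differed by more than 6 places between the libraries. The remaining 19 detected members had means between 1.07 and 4.62 TPM. Besides those described below they were Fbxo34, Fbxo25, Fbxl14, Fbxl6, Fbxl18, Fbxo33, Fbxw9, Fbxl15, Fbxo46, Fbxl7 and Fbxl19. Fbxl15, an activator of bone morphogenetic signalling through SMURF1, had 1.27 and 1.6 TPM and shares 25.6% of its exonic bases with Cuedc2 on the other strand.

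Fbxw7, the subunit that removes cyclin E, MYC and NOTCH, had 9.12 TPM from 1076 counts in replicate 1 and 13.54 TPM from 1442 counts in replicate 2. Relative to its level, this was the widest gap among the 25 highest members, with a ratio of 0.674, replicate 1 over replicate 2. The gene lies on chromosome 3 on the plus strand, from 84815268 to 84979198, and makes proteins with different amino ends from alternative first coding exons, which is known to place the protein in different parts of the cell. Nearly all of the gap of 4.42 TPM lay in 1 transcript: Fbxw7-202 had 6.63 TPM in replicate 1 and 11.03 in replicate 2, a gap of 4.40 TPM. The deposited intervals of this transcript, 5.59 to 7.01 TPM and 9.76 to 11.4 TPM, did not overlap. Fbxw7-204 had 1.94 and 1.65 TPM, and Fbxw7-201 had 0.19 and 0.63 TPM. The last coding transcript, Fbxw7-203, was listed at 0 in both libraries but had 1.31 and 1.55 TPM in the second quantification. It shares the coding start of Fbxw7-204. In the second quantification the gene had 11.5 TPM in replicate 1 and 17.0 in replicate 2. Of this, Fbxw7-202 had 6.95 and 11.7 TPM, Fbxw7-204 2.03 and 1.66 TPM and Fbxw7-201 0.708 and 1.74 TPM.

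The coding starts show what separates the 3 forms. Each line gives the first 60 coding bases on GRCm38, plus strand, with the ATG in capitals, and the first coding exons lie at chr3:84925653-84925799 for Fbxw7-202, chr3:84903570-84904079 for Fbxw7-204 and chr3:84952373-84952639 for Fbxw7-201.
Fbxw7-202: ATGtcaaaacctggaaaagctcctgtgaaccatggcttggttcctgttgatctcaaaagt
Fbxw7-204: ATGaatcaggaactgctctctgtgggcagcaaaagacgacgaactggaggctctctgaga
Fbxw7-201: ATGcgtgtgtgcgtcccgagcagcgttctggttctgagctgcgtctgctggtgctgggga
After these own starts of 147, 510 and 264 bases for Fbxw7-202, Fbxw7-204 and Fbxw7-201, the coding sequences ran on alike to their ends. The form with the shortest start was thus the main one in both libraries. In the first quantification it had 72.8% of the gene's TPM in replicate 1 and 81.5% in replicate 2.

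**Figure D2:**
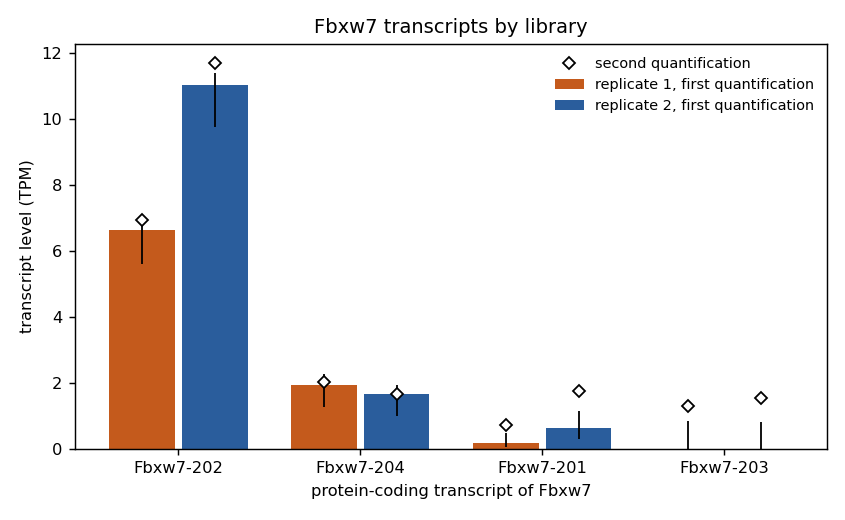
Level (y axis, TPM) of the 4 protein-coding Fbxw7 transcripts; for each transcript the left bar is replicate 1 and the right bar replicate 2, vertical lines are the deposited intervals of the first quantification, and diamonds are the second quantification. Fbxw7-202 is the tallest in both libraries (6.63 and 11.03 TPM), and the second quantification gives it 6.95 and 11.7 TPM.

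Cell cycle and growth regulators were detected in 6 of 8 cases. Fbxw8, which joins CUL7 in a ligase for IRS1, had 12.22 TPM in replicate 1 and 9.24 in replicate 2, and its deposited intervals did not overlap. An antisense gene, Gm9754, covers 33.4% of its exonic bases and was listed at 0. Fbxl12, which acts on the cyclin-dependent kinase inhibitor p57, had 2.98 and 2.19 TPM, and Fbxo4, which acts on cyclin D1, had 2.27 and 1.84 TPM. The level of Fbxl12 is uncertain, since 37.1% of its exonic bases overlap Ubl5 on the other strand, which had 82.1 and 77.9 TPM, and whether the quantification used strand is not given in the sources used here. Fbxo5, the Emi1 inhibitor of the anaphase-promoting complex, had 72 counts in replicate 1 and 33 counts in replicate 2. Its meiotic relative Fbxo43 was listed at 0. Outside the members, the S-phase F-box gene Skp2 had 0.91 and 1.00 TPM and Ccnf, cyclin F, 1.23 and 0.86 TPM.

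A further group of relatives includes proteins that bind sugar chains of misfolded glycoproteins. It was led by Fbxo6, with 13.13 TPM in replicate 1 and 11.46 in replicate 2. Fbxo17 had 2.55 and 2.70 TPM, Fbxo44 1.5 and 1.33 TPM and Fbxo27 0.37 and 0.51 TPM, while Fbxo2, known mainly from neurons, had 2 and 4 counts. Fbxo6, Fbxo44 and Fbxo2 lie side by side on chromosome 4, with 660 and 139 bases between them. These close neighbours thus ranged from over 11 TPM to a handful of reads, and Fbxo6 exceeded Fbxo44 8.68 ± 0.0967-fold (SD, n = 2). Fbxo44 had only 63 and 60 counts, so this SD is a poor guide to the error of the ratio. In the second quantification the mean ratio of Fbxo6 over Fbxo44 was 8.09.

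In other related pairs one gene also dominated. Fbxo11 exceeded Fbxo10, whose human protein acts on BCL2 and which had 1.48 and 1.40 TPM, 10.1 ± 0.277-fold in TPM (SD, n = 2), with 58.0% identical bases over the aligned coding sequence. Fbxl20, a ligase of the synaptic protein RIM1, had 5.47 TPM in replicate 1 and 4.10 in replicate 2. It exceeded Fbxl2, at 0.53 and 0.41 TPM from 36 and 32 counts, 10.2 ± 0.227-fold, with 70.5% identity. On so few counts the SD of 2 libraries is a poor guide to the error of this ratio. Of the exonic bases of Fbxl2, 11.2% overlap Ubp1 on the other strand, which had 7.2 and 6.92 TPM. Protein-coding transcripts took 15.4% of the Fbxl2 TPM in replicate 1 and 64.3% in replicate 2. Fbxw11 and Btrc, which encode the pair of beta-TrCP proteins, were closer, with a ratio of 1.92 ± 0.0667 (SD, n = 2 for each ratio). These ratios depended on the quantification. The second one gave means of 9.04 for Fbxo11 over Fbxo10, 12.9 for Fbxl20 over Fbxl2 and 2.36 for Fbxw11 over Btrc.

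Iron and mitochondrial members were detected in 3 of 3 cases. Fbxl5, the iron sensor that removes iron regulatory proteins, had 10.78 TPM in replicate 1 and 11.79 in replicate 2. Fbxl4, a mitochondrial outer membrane protein that restrains mitophagy, had 6.02 and 5.37 TPM, and Fbxo7, a proteasome-binding protein mutated in a form of parkinsonism in humans, had 4.63 and 3.46 TPM.

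Mainly neuronal members were detected in 1 of 3 cases. Fbxo45, which works with the synaptic ligase PAM, had 4.26 TPM in replicate 1 and 5.14 in replicate 2. Fbxl16 had 0.43 and 0.58 TPM, and Fbxo41 had 3 and 4 counts.

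The other members among the 25 highest lay within a narrow band. Fbxo38 had 9.08 TPM in replicate 1 and 9.27 in replicate 2, Fbxo22, which acts on histone demethylases of the KDM4 group, 8.35 and 9.68 TPM, and Fbxo28 8.74 and 8.86 TPM. Fbxo8, which has a Sec7 domain, had 8.43 and 8.47 TPM. Fbxw4, whose locus is altered in mice with limb defects, had 8.54 and 8.10 TPM. Of the exonic bases of Fbxw4, 21.4% overlap Gm17018 on the other strand, which had 5.79 and 5.87 TPM.

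A whole block of the family was listed at 0. The 14 Fbxw genes Fbxw13 to Fbxw16, Fbxw18 to Fbxw22 and Fbxw24 to Fbxw28 stand in a row at chr9:109139447-109790670 with no other protein-coding gene between them, and none had a count in either library. For counting error alone, a count of 0 allows up to 0.0735 CPM in replicate 1 and 0.0804 in replicate 2. Some genes of this row are known from oocytes. The nearest protein-coding neighbours were not detected either: Plxnb1 on one side had 0.95 and 0.82 TPM, and Spink8 on the other was listed at 0. The next genes out, Ccdc51 with 3.52 and 3.93 TPM and Nme6 with 8.51 and 8.84 TPM, were detected. The coding sequences of the 14 genes are related, with 79.5% to 99.0% identical bases over 91 pairs and a median of 84.6%. Reads from the most alike could be divided between genes of the row. The second quantification gave some of them a few counts: Fbxw19 had 5.09 and 6.01, Fbxw20 2 and 1, and Fbxw28 0 and 2 in replicate 1 and replicate 2. For Fbxw19 this is above the 3 counts of the limit in both libraries. Protein-coding transcripts took 0% of the TPM of Fbxw19 and Fbxw20 there, and 100% of that of Fbxw28 in replicate 2. The Fbxw19 counts thus lay in its retained-intron transcript Fbxw19-202 and not in its coding one. The other members listed at 0 were Fbxo15, a gene known from embryonic stem cells, with 7.17 and 3 counts in the second quantification, and Fbxo43, with 2.08 and 1.02 counts there. In all, 11 members had no count in either quantification. Of the 76 members, 19 lie on chromosome 9.

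The promoters of the row are poor in CG dinucleotides. The example shown is that of Fbxw21, at chr9:109161973-109162272 on the minus strand of GRCm38.p6, with its single CG in capitals, to be read beside those of Fbxo40 and Fbxo31.
Fbxw21: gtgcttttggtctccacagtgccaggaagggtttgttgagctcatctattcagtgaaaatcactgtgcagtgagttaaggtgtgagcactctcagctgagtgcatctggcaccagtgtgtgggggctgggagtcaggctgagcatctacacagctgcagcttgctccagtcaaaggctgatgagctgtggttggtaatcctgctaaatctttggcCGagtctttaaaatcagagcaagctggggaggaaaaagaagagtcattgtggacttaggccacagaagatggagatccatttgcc
A RefSeq promoter starting within 100 bases of the leading coding transcript was found for 47 members. Called CpG-rich where CG dinucleotides reached 0.6 of the number given by base composition and GC content 50%, 18 of 27 promoters of detected members (66.7%) were rich, against 6 of 20 of the other members (30.0%). Over all genes the shares were 74.4% of 6939 and 20.4% of 6444. The difference within the family lay in the row on chromosome 9, where 0 of 11 promoters were rich, while outside it 6 of 9 promoters of members that were not detected were rich. All 11 promoters of the row held CAGCTG, as did 7 of 27 promoters of detected members and 0 of the other 9. The copies share sequence and are not separate cases.

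**Figure D3:**
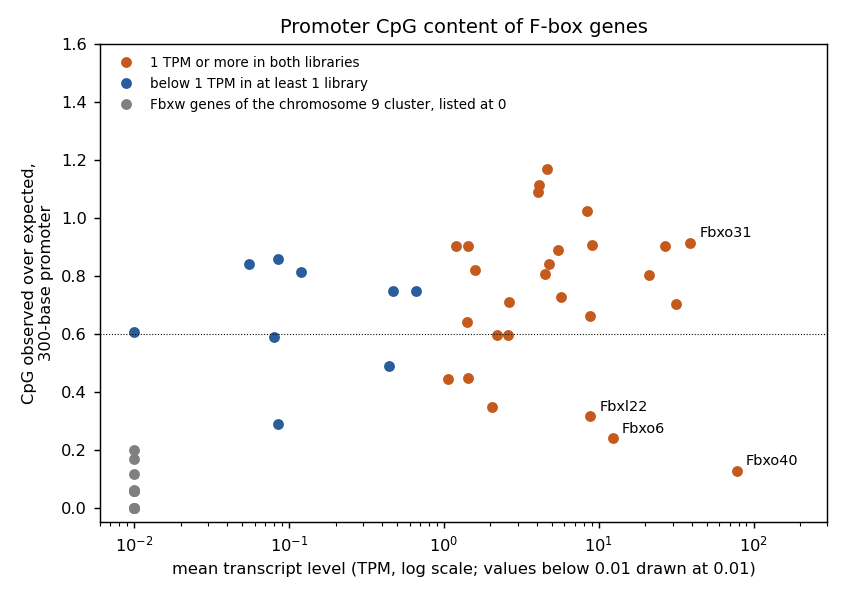
CG dinucleotides of the 300-base promoter relative to the number given by base composition (y axis) against mean transcript level (x axis, TPM, log scale, with values under 0.01 drawn at 0.01) for 47 F-box genes; the dotted line marks 0.6, and points of equal values coincide. Orange points are detected members, blue points the others and grey points the row on chromosome 9, where all lie at or below 0.201; Fbxo40 combines the highest level with 0.128.

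The kinds of transcript behind these levels were counted from the transcript tables. Protein-coding transcripts took 83.0% of the family's TPM in replicate 1 and 84.6% in replicate 2, or 83.8 ± 1.16% (SD, n = 2), against 88.3% and 88.7% over all genes with such a transcript. Processed transcripts took 9.72% and 9.18%, retained introns 4.68% and 3.13%, and transcripts subject to nonsense-mediated decay 2.69% and 3.13%. The leading transcript was protein-coding in 42 of 44 detected members, and 32 of 44 had at least 75% protein-coding TPM in both libraries.

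In 4 members the protein-coding share was under 50% in at least 1 library. Fbxo28 was under it in both, with 49.1% in replicate 1 and 48.5% in replicate 2, although its transcript Fbxo28-201 led with 4.29 and 4.30 TPM. As a share of counts, protein-coding transcripts of Fbxo28 took 82.6% and 83.5%. Fbxo22 had 56.5% and 43.2%, and its decay-prone transcript Fbxo22-205 had 3.40 and 5.49 TPM. Fbxo17 had 51.96% and 23.2%, with 1.08 and 1.91 TPM for the decay-prone Fbxo17-202. Fbxw17 had 59.8% and 46.0% of TPM and 83.4% and 64.3% of counts. Counted that way, Fbxo22 and Fbxo17 were under 50% in replicate 2 and no detected member was in replicate 1. In the second quantification the protein-coding TPM share of Fbxo22 was 66.2% and 65.6%. Among the 25 highest members, Fbxo6, Fbxl22, Fbxo30 and Fbxo45 have only protein-coding transcripts in the annotation. Their share of 100% was therefore fixed in advance and is no result of these libraries.

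Short transcripts weigh heavily on a per-length scale. For Fbxo40, the coding transcript Fbxo40-201 of 5137 bases had 58.04 TPM in replicate 1 and 64.76 in replicate 2 from 9365 and 9776 counts. The processed transcript Fbxo40-204 of 383 bases had 16.56 and 14.38 TPM from only 151 and 122 counts, and the second quantification listed it at 0. For Fbxo31, the coding transcript Fbxo31-205 of 606 bases had 19.09 and 18.10 TPM from 310 and 275 counts, about as high as Fbxo31-201 of 4358 bases, with 19.73 and 19.02 TPM from 2691 and 2427 counts. The 2 quantifications named the same leading transcript in 32 of 44 detected members. In the second quantification all 44 had higher levels, by 1.03 times for Fbxl22 up to 2.08 times for Fbxl20, and 8 members by more than 1.5 times. Fbxl20 then had 12.1 TPM in replicate 1 and 7.80 in replicate 2, of which the processed transcript Fbxl20-203 took 5.72 and 3.71 TPM. Fbxw4 had 14.3 and 15.1 TPM in that quantification.

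**Figure D4:**
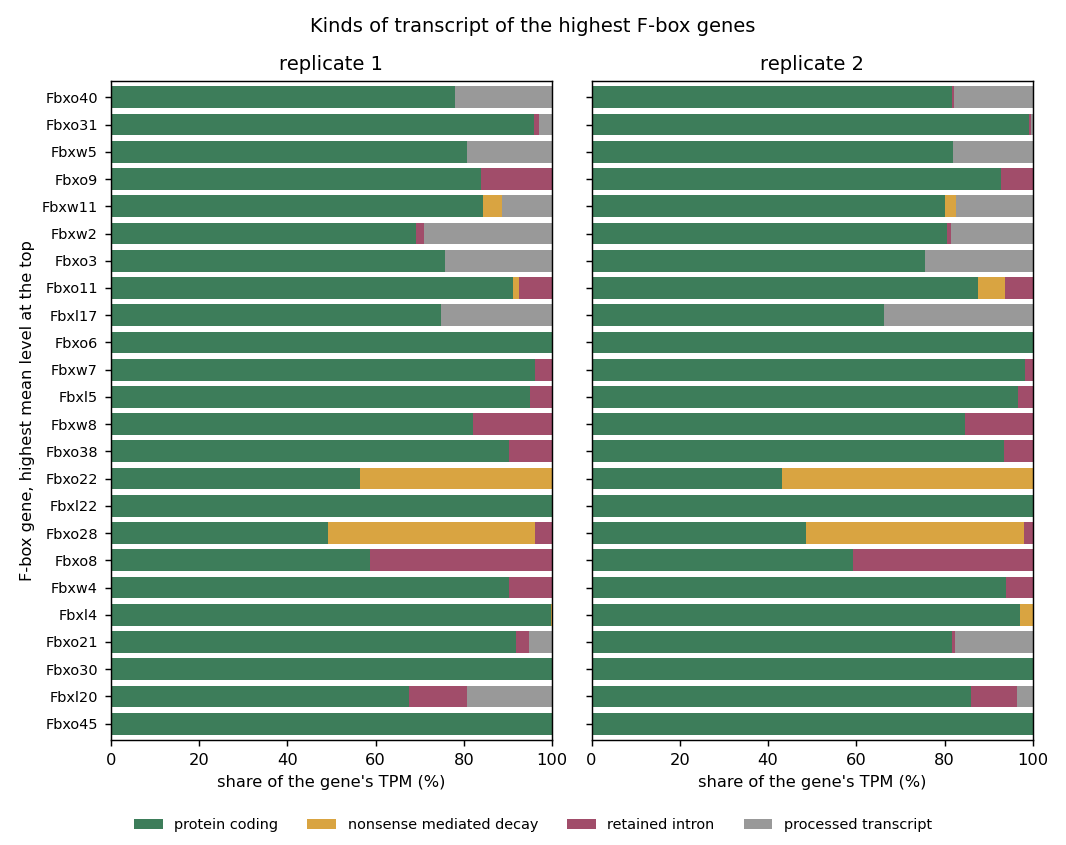
Share of each gene's TPM (x axis, %) by kind of transcript for 24 of the 25 highest F-box genes, replicate 1 on the left and replicate 2 on the right. Green, the protein-coding share, fills most bars; Fbxo22 and Fbxo28 have large shares of decay-prone transcripts (yellow) and Fbxo8 of retained introns (purple).

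Between the libraries, an exact binomial test on rounded expected counts, scaled by TMM (edgeR's library scaling) and adjusted by Benjamini-Hochberg over 17245 genes, asked which genes differed beyond counting error. It compares these 2 libraries and no conditions. Of 54 members with at least 10 counts, 14 passed at an adjusted p of 0.05, or 25.9%, against 21.5% of all genes tested, so the family lay near the background. Of these, 6 were higher in replicate 1, where the background share was 10.6%, and 8 were higher in replicate 2, where it was 10.9%. The median log2 difference of the tested members, replicate 1 over replicate 2, was 0.015 and that of all genes 0.0096.

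The 6 members higher in replicate 1 were Fbxw11, Fbxo11, Fbxw8, Fbxo21, Fbxl20 and Fbxo5. Fbxw8 had 1702 counts in replicate 1 and 1226 in replicate 2, a log2 difference of 0.32 (exact binomial test, adjusted p = 5.75e-08). Fbxl20 had 1051 and 716 counts, a log2 difference of 0.40 (exact binomial test, adjusted p = 1.55e-07). Fbxo21 had 676 and 468 counts, a log2 difference of 0.38 (exact binomial test, adjusted p = 0.000155). Fbxo5 showed the widest log2 difference of the tested members that passed, 0.96, on few counts (exact binomial test, adjusted p = 0.00801). Fbxw11 and Fbxo11 differed by 0.12 and 0.14 on the log2 scale, and neither passed with the second quantification (exact binomial test, adjusted p = 0.0607 and 0.176).

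The 8 members higher in replicate 2 were Fbxo40, Fbxo9, Fbxl17, Fbxw7, Fbxl5, Fbxo22, Fbxo45 and Fbxo42, of which Fbxw7 alone stayed so when the libraries were scaled by the added ERCC RNAs. That scaling set the median log2 difference of all genes at 0.30. With it 30 of the 54 members passed, where 52.5% of all genes did: 29 were higher in replicate 1, where the background share was 50.8%, and 1 in replicate 2, where it was 1.72%. Fbxw7 differed by a log2 value of -0.57 with TMM (exact binomial test, adjusted p = 1.29e-21) and by -0.28 with ERCC scaling. Fbxo40 differed by -0.22 with TMM (exact binomial test, adjusted p = 8.21e-25) and by 0.07 with ERCC scaling, where it was called higher in replicate 1. Fbxo45 differed by -0.33 with TMM (exact binomial test, adjusted p = 0.00101) and by -0.03 with ERCC scaling, where it did not pass. The other 5 differed by -0.17 to -0.23 with TMM and turned positive with ERCC scaling, where Fbxl17 was called higher in replicate 1 and Fbxo9, Fbxl5, Fbxo22 and Fbxo42 did not pass. Fbxl5, Fbxo22 and Fbxo42 also did not pass when libraries were scaled by total counts (exact binomial test, adjusted p = 0.0997, 0.0804 and 0.0767). Fbxo22 and Fbxo42 did not pass with the second quantification (exact binomial test, adjusted p = 0.102 and 0.197). Of these 5, Fbxo9 also had a higher TPM in replicate 1 and more scaled counts in replicate 2. Its transcript Fbxo9-202 of 2155 bases had 11.11 TPM in replicate 1 and 16.68 in replicate 2, and Fbxo9-201 of 1850 bases had 9.33 and 7.03 TPM.

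Size and test did not pick the same genes. Among the 44 detected members, 2 differed by more than 1.5-fold in TPM between the libraries, and neither passed the test. Fbxw17 had 2.71 TPM in replicate 1 and 1.73 in replicate 2, a ratio of 1.57 (exact binomial test, adjusted p = 0.522), and Fbxo33 had 2.33 and 1.52 TPM, a ratio of 1.53 (exact binomial test, adjusted p = 0.14). Fbxo5, which passed, had a ratio of 2.03 but lay under 1 TPM in replicate 2. The deposited intervals of the TPM overlapped for 41 of the 44, and the 3 that did not overlap were Fbxw7, Fbxw8 and Fbxo45. The share over all genes was not computed for this count or for the 2 members over 1.5-fold apart, so neither has a background beside it. Some intervals do not hold the listed level, such as that of Fbxo34 in replicate 2, 4.72 to 6.96 TPM against 4.23 TPM.

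**Figure D5:**
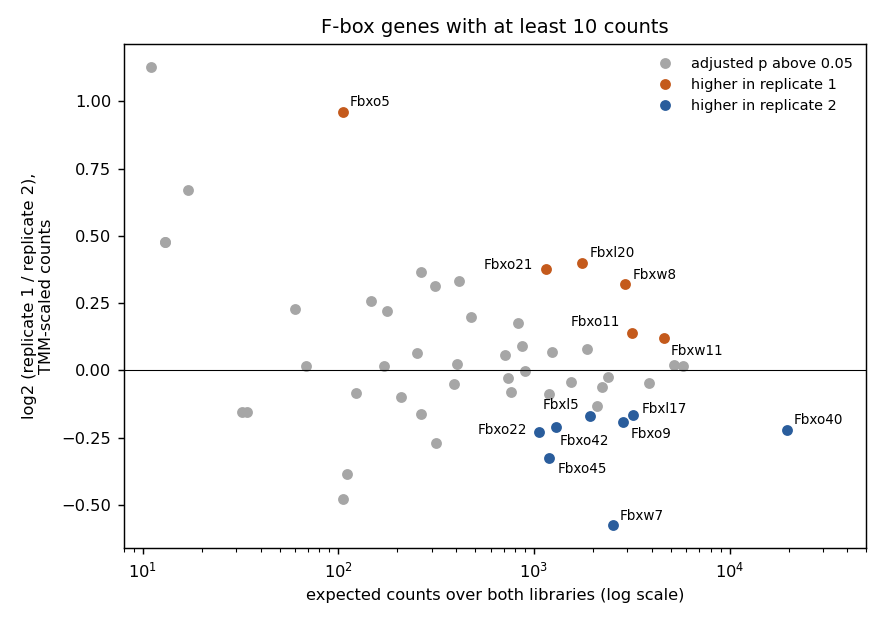
Log2 ratio of TMM-scaled counts, replicate 1 over replicate 2 (y axis), against expected counts over both libraries (x axis, log scale) for the 54 F-box genes with at least 10 counts. Coloured points passed the exact binomial test at an adjusted p of 0.05, orange higher in replicate 1 and blue higher in replicate 2; of the blue genes, Fbxw7 alone stays called so under ERCC scaling, and among coloured points Fbxo5 at 0.96 and Fbxw7 at -0.57 lie farthest from 0.

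The listed partners of the ligase were all detected. The 34 listed genes cover the SCF core, the conjugation of NEDD8 to the cullin, which switches the ligase on, its removal by the COP9 signalosome, the exchange factors of the CAND group, ubiquitin transfer and the RBX1 inhibitor Glmn. All 34 were at 1 TPM or more in both libraries, with sums of 1330 TPM in replicate 1 and 1357 in replicate 2. The ubiquitin-conjugating enzyme Cdc34 led with 141.7 and 152.5 TPM, followed by Ube2d3 with 129 and 135 TPM and the adaptor Skp1a with 110 and 114 TPM. The second quantification reversed this order. Skp1a had 226 and 222 TPM there, Ube2d3 185 and 191 TPM and Cdc34 156 and 178 TPM. Nedd8 had 90.1 and 84.1 TPM and the RING gene Rbx1 48.0 and 51.8 TPM. The scaffold Cul1 had 26.6 TPM in replicate 1 and 25.3 in replicate 2, so that the F-box members together stood far above their cullin in TPM. Cand2, the muscle-enriched form of the exchange factor that swaps F-box proteins, had 30.7 and 31.7 TPM, and the general form Cand1 11.2 and 12.2 TPM. In the binomial test with TMM, 0 of these 34 genes passed as higher in replicate 1 and 10 as higher in replicate 2, where the shares over all genes were 10.6% and 10.9%. With ERCC scaling 27 passed as higher in replicate 1 and 0 as higher in replicate 2, where the shares over all genes were 50.8% and 1.72%, so no direction is given.

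Among 8 F-box proteins with other symbols, 4 were detected. Lmo7, a protein of cell junctions and the nuclear envelope, had 32.2 TPM in replicate 1 and 30.5 in replicate 2. The histone demethylases Kdm2a and Kdm2b had 12.5 and 11.4 TPM and 6.07 and 5.93 TPM, and Btrc had 12.25 and 11.98 TPM.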

How the data were processed

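Total RNA-seq of 2 libraries of 1 group was used, with 40825601 and 37329025 expected counts. Per the labels, the assembly was mm10, and GENCODE M21 was the annotation per the deposited description; which aligner and quantifier were used is not given in the sources used here. Expected counts (estimated reads, not normalised) and TPM (scaled per table, added RNAs included) were deposited per gene and transcript from alignments to the transcriptome, with interval bounds of the TPM, and with a second transcript quantification made directly from reads. Expected counts were rounded for testing. Libraries were scaled with TMM (edgeR 4.0.16 in R 4.3.3) and compared by a two-sided exact binomial test (scipy 1.17.1) for genes with at least 10 counts, adjusted by Benjamini-Hochberg at 0.05; it was tested on simulated data. Intervals, floors and tests cover counting error only. Alternatives were DESeq2 1.42.0 size factors, total counts, ERCC scaling, other minimums, pseudocounts of 0.1 and 1 TPM, and the second quantification. Named are the 25 highest members, members past the test, related pairs, role lists, extremes of protein-coding share and members at 0; other members were named after their values were seen. Members and lists were chosen with earlier results of these data known. Alleles of the hybrid were not separated. Promoters are from RefSeq (GRCm38.p6). Some genes with matching symbols are not reported here.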

Additional observations from a re-analysis of the deposited data

How the results depend on the processing

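The number of detected members stayed within 1.5 times of 44 with the second quantification (44), at 0.5 TPM (46) or with at least 10 counts in each library (50), and was 21 at 5 TPM or more. Leaving out each library in turn gave 44 to 45 detected members, a summed level of 456 to 467 TPM, a median of 1.54 to 1.56 TPM and a protein-coding share of 83.0% to 84.6%. The summed level was 595 TPM and the median 2.21 TPM with the second quantification, in which all 44 detected members were higher, by a median ratio of 1.32 against 1.35 over all such genes. Rescaled to nuclear protein-coding genes alone the sum was 986 TPM. As a share of counts instead of TPM, protein-coding transcripts took 94.2%.

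With ERCC scaling 30 members passed the binomial test, 29 of them higher in replicate 1, and 9 of the 30 were among the 14 that passed with TMM; of all genes 9052 passed, 8756 higher in replicate 1 and 296 in replicate 2, against 1829 and 1881 with TMM. The other settings gave 10 to 14 members, all among the 14, and 3426 to 3996 genes. Fbxo22 and Fbxo42 did not pass with total counts, the second quantification or a minimum of 1 count, Fbxl5 with total counts or that minimum, Fbxo11 with the second quantification or that minimum, and Fbxw11 with the second quantification. With total counts the split of all genes was 2047 higher in replicate 1 and 1558 higher in replicate 2. ERCC scaling turned the log2 difference of Fbxo40 to 0.074, of Fbxl17 and Fbxl5 to 0.13, of Fbxo22 to 0.065 and of Fbxo42 to 0.084. For Fbxo9, which is positive in TPM, scaled counts gave -0.17 with total counts, -0.19 with DESeq2 size factors and -0.19 with the second quantification. The cause of these changes was not tested. No paired analysis was possible because the series holds 1 group, and the binomial test needs both libraries, so it could not be repeated without either. Members with few reads, such as Fbxo5, and the related Fbxw genes on chromosome 9 are limited by depth and by how reads were divided.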
